A study of Mus musculus with 4 samples.

Results

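The genes described here encode the heat shock and J-protein chaperones of the cell, taken from the count table by symbol. They comprise the Hsp70, Hsp110, Hsp90 and small heat shock protein genes, the chaperonins of mitochondria (Hspd1, Hspe1) and cytosol (TRiC, the ring formed by Tcp1 and the Cct subunits), the DnaJ genes of classes A, B and C, and Bag1 to Bag6. Hspa5, Hspa13, Dnajb9, Dnajb11, Dnajc3 and pseudogenes were left out. The rule found 82 of 50600 genes and used no measured value. RNA had been sequenced from primary epithelial cells of the colon, taken from C57BL/6 mice, in 2 libraries labelled Mettl14 wild type (WT) and 2 labelled Mettl14 knockout (KO). Mettl14 encodes a subunit of the enzyme complex that methylates adenosines in mRNA (m6A), and the comparison asks which transcripts differ when it is deleted. The promoter or Cre that drives the deletion, the age of the mice and whether a library pooled several mice are details not given in the sources used. All sample titles share the code 2W, which may stand for an age or a time and is not explained. The label of cytosolic chaperones holds for most of the genes. By textbook knowledge, however, 8 of the 82 proteins were assigned to mitochondria and 7 to the endoplasmic reticulum, an assignment that may be incomplete.

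Chaperones bind unfolded stretches of other proteins and keep them from aggregating. J-proteins bring clients to Hsp70 and switch on its ATPase, and nucleotide exchange factors (many BAG proteins and Hsp110) release the client. Hsp90 and TRiC finish the folding of selected clients such as kinases, actin and tubulin. In stressed cells the transcription factor Hsf1 binds heat shock elements, repeats of GAA and TTC, and induces a subset of these genes. In the intestinal epithelium, which is renewed quickly, much of the Hsp70 system is expressed without heat.

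Library totals ran from 22136440 to 24991060 counts. Values below are counts relative to library size (CPM) after TMM scaling, which corrects for a few abundant genes taking up a library, and the test is edgeR's quasi-likelihood F-test with p adjusted over all 14861 genes tested (threshold 0.05). Mettl14 stood at 11.7 and 8.67 CPM in WT and at 3.99 and 3.94 CPM in KO, below WT in both KO libraries and just outside the threshold (log2 fold change of -1.36, adjusted p = 0.0503 by edgeR). All 14 epithelial markers were detected, with summed levels of 12530 and 14130 CPM in WT and 10630 and 9988 CPM in KO, and 10 of the 14 had a negative log2 fold change. Muscle and fibroblast markers summed to 60.4 and 86.9 CPM in WT and to 78.4 and 592 CPM in KO, so that KO replicate 2 stood apart. Macrophage markers summed to 90.8 and 144 CPM in WT and 248.7 and 213 CPM in KO, with 3 of 11 tested called higher by edgeR and 6 by DESeq2. Erythroid markers summed to 1977 and 2737 CPM in WT and to 1353 and 6682 CPM in KO. The other lists were neutrophil (42.1, 148, 138 and 97.2 CPM in the order WT replicate 1, WT replicate 2, KO replicate 1, KO replicate 2), lymphocyte (119, 150, 172 and 134 CPM) and endothelial markers (5.59, 7.45, 11.4 and 9.24 CPM). Of all these markers, the neutrophil gene Elane was at 0 in every library. By Xist and 4 Y-linked genes, WT replicate 1 and KO replicate 2 came from males and the other libraries from females. The part of these differences in the results below was not tested.

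Stretches upstream of 3 chaperone genes are shown because they hold, or lack, a strict 3-unit pattern of the element through which Hsf1 acts. They are from RefSeq (GRCm38.p6), end 1 base before the annotated transcript start, and carry matches to the 3-unit element GAANNTTCNNGAA (TTCNNGAANNTTC on the other strand, both searched, overlapping matches merged) in capitals. Bag5 (chr12:111713257-111713506, minus strand) is the gene that changed in KO. The stretch named Hspe1 (chr1:55087933-55088147, plus strand) is the 215 bases that lie between the starts of Hspe1 and Hspd1, which lie head to head, although a further Hspd1 start lies beyond it. Dnajb6 (chr5:29735648-29735897, plus strand) holds a single match.
Bag5: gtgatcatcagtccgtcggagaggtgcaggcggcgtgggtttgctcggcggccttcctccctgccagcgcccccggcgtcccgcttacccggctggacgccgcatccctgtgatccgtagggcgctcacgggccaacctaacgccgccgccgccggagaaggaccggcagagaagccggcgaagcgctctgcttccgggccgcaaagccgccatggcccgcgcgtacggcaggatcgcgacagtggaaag
Hspe1: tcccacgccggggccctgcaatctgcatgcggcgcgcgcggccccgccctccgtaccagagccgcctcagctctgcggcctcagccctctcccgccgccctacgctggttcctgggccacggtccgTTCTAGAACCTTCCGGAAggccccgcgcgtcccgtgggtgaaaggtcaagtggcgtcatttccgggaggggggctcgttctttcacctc
Dnajb6: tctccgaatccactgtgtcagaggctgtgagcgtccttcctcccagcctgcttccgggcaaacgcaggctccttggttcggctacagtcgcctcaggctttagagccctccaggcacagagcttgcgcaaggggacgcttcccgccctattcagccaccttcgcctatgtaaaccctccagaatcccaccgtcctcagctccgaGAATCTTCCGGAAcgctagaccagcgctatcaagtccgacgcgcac
The Hspe1 stretch holds 2 overlapping matches that form a run of 18 bases, from 89 to 72 bases before the Hspe1 start and from 144 to 127 bases before that of Hspd1. The match of Dnajb6 lies 46 to 34 bases before its upstream RefSeq start and 127 to 115 bases before the other, whereas a GENCODE M21 transcript of Dnajb6 starts further upstream, before the match. In Hsph1 the match TTCTGGAAAGTTC lies 37 to 49 bases after the upstream start and 16 to 28 bases after the other. The promoter table, with windows from 250 bases before to 50 after each start, held 67 of the 82 genes. Of these, 4 (5.97%) had a match (Hspd1, Hspe1, Hsph1 and Dnajb6), against 0.662% of 27025 genes in the table and 0.603% of all its windows. Hspd1 and Hspe1 share the same run, so the 4 genes are not separate sites. Neither of the 2 Bag5 windows held one. Of the 12 genes best known as Hsf1 targets, described below, 9 were in the promoter table and 3 of these had a match. The pattern thus misses most of these targets, and its absence does not show that a gene lacks a heat shock element. A match is a description of the letters, not of binding.

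Of the 82 chaperone genes, 71 passed the filter on low counts. In KO, 1 of them rose and none fell by edgeR (1.41% called, against 3.61% of all genes tested, 1.72% higher and 1.9% lower). At an unadjusted p under 0.05, 6 were higher and 9 lower (8.45% and 12.7%, against 14.8% and 15.7% of all genes, or 30.5% of all genes in either direction). DESeq2 called 2 higher and 1 lower (6.41% and 6.56% of all genes, 13% in either direction). The median log2 fold change was -0.07, beside -0.01 for all genes tested, with 29 positive and 42 negative values. Differences of over 1.5-fold were seen in 10 of the 71 (14.1%, against 31.8% of all genes) and of over 2-fold in 3 (4.23%, against 14.6%). Both KO libraries lay above both WT libraries for 16 genes (22.5%, against 31.1% of all genes) and below them for 22 (31.0%, against 32.2%), while 63.3% of all genes fell in either class. In bulk RNA, fewer cells of a type and less RNA per cell cannot be told apart.

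The chaperone genes took 0.417% and 0.394% of all counts in WT and 0.394% and 0.449% in KO. Hspa8 alone made up 25.2% and 21.9% of the chaperone counts in WT and 17.5% and 18.9% in KO, so its share was lower in both KO libraries. With library size scaling in place of TMM the median of the chaperone genes was 0.09, with 45 positive and 26 negative values, and that of all genes was 0.15. The median of the chaperone genes thus lay below that of all genes under both scalings, while its sign differed.

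Which chaperone genes were called depended on the analysis. Bag5 alone was called with RLE factors (2.93% of all genes called, 1.46% higher and 1.47% lower), with limma-voom (4.15%, 2.02% and 2.13%) and without mitochondrial and the 10 most abundant genes (3.69%, 1.97% and 1.72%). Bag5 and Dnajc10 were called higher with upper quartile factors (4.58%, 2.8% and 1.78%) and with library size scaling (5.32%, 4.06% and 1.25%). Bag5 was called higher and Dnajb2 lower with a filter of 1 CPM in 2 libraries (5.68%, 2.76% and 2.92%).

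Bag5 and Dnajc10 were called higher and Dnajb2 lower by DESeq2, without a filter (6.71%, 3.54% and 3.16%) and with sex as a covariate (9.48%, 4.68% and 4.8%). When WT replicate 1 was left out, Bag5 was called higher and Dnajb1, Dnajb2 and Dnajc5 lower (7.95%, 3.37% and 4.58%). Without WT replicate 2, Bag3, Bag5, Dnajc10 and Dnajc25 were called higher and Dnajb2 and Dnajc13 lower (14.6%, 8.11% and 6.5%).

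**Figure D1:**
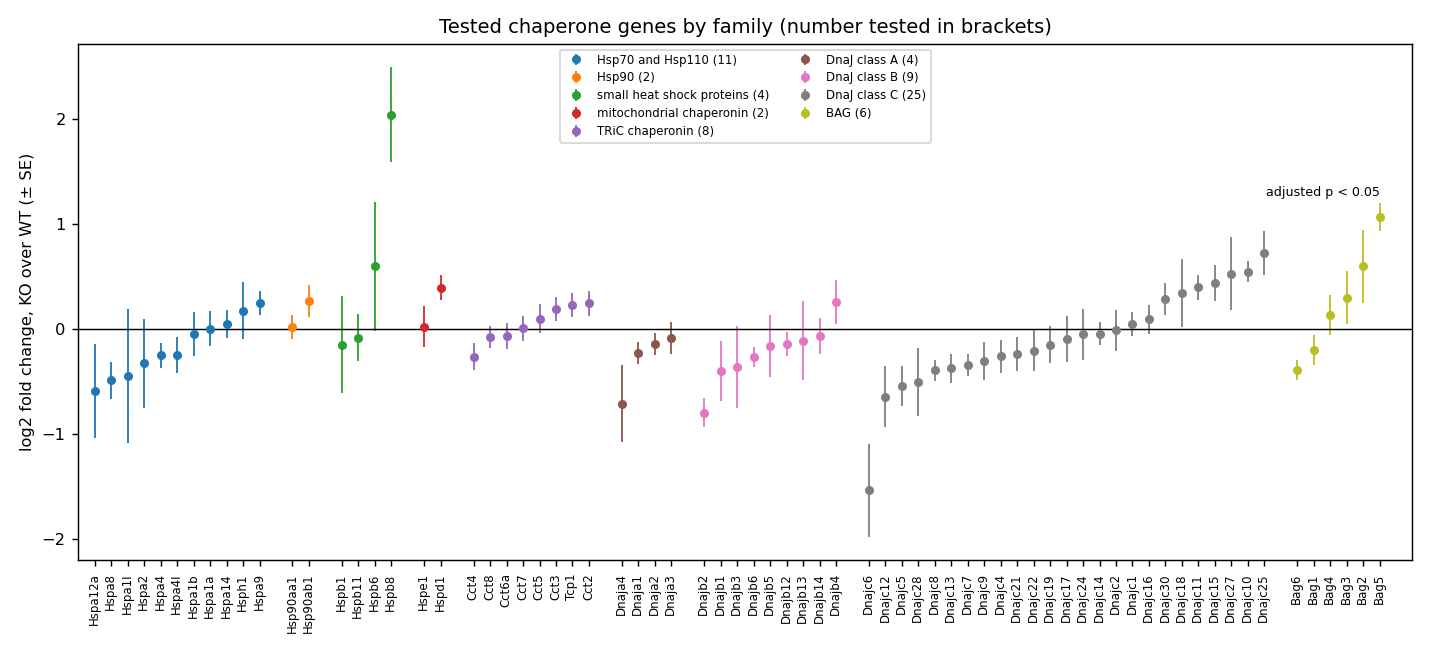
Log2 fold change of KO over WT (vertical axis, ± SE from the edgeR fit) for the 71 tested chaperone genes, grouped and coloured by family. Most points lie near 0, Bag5 at 1.07 is the gene that passed the threshold, and Hspb8 and Dnajc6 have the largest differences, at low counts.

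Many BAG proteins bind the ATPase domain of Hsp70 and release its nucleotide. Bag5 (ENSMUSG00000049792, chromosome 12, 111709488 to 111713257, minus strand), whose protein carries several BAG domains, was at 9.88 and 9.89 CPM in the WT libraries and at 19.5 and 21.9 CPM in the KO libraries. Both KO values were thus well above both WT values, which were almost equal. Bag5 rose from 9.88 ± 0.00937 to 20.7 ± 1.72 CPM (SD, n = 2), 2.09-fold (log2 fold change 1.07, SE 0.13, edgeR adjusted p = 0.0434). It was called in 11 of 13 alternative analyses with log2 fold changes of 1.05 to 1.24. The call was lost without KO replicate 1 (log2 fold change 1.14) and without KO replicate 2 (0.998), fits that leave a lone KO library. Within females the difference was 0.94 on the log2 CPM scale and within males 1.11.

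Apopt1 lies on the other strand within 500 bases of Bag5, and the sources do not say whether reads were counted by strand. Apopt1 was at 10.6 and 7.62 CPM in WT and 7.67 and 7.29 CPM in KO (log2 fold change -0.28), with overlapping genotypes.

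The other 5 BAG genes were not called. Bag6, which hands tail-anchored membrane proteins to their targeting factors, stood at 99.6 and 98.6 CPM in WT and 76.6 and 74.8 CPM in KO. Its KO values lay below those of WT and the replicates were close (log2 fold change -0.39, SE 0.10, edgeR adjusted p = 0.084). Bag3, a partner of small heat shock proteins in selective autophagy and an Hsf1 target, was at 18.6 and 30.2 CPM in WT and 30.8 and 29.3 CPM in KO. The genotypes overlapped, and WT replicate 1 alone was low: the log2 fold change of 0.30 became -0.01 without it and 0.73, with a call (edgeR adjusted p = 0.0304), without WT replicate 2. Bag1, the member of its family with the highest level per exon length, was at 78.7 and 89.8 CPM in WT and 80.3 and 66.4 CPM in KO (-0.20). Bag2 (0.60) and Bag4 (0.14) had positive values.

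The Hsp70 system was led by Hspa8, the constitutive Hsc70 (ENSMUSG00000015656, chromosome 9, 40800984 to 40810087). Per exon length, measured in TPM (counts over exonic length, scaled to the same sum in every library), it ranked first of the 82 genes with a mean of 318 TPM over the 4 libraries. It was followed by Hsp90ab1 (289 TPM), Bag1 (92.2 TPM), Hspd1 (75.7 TPM) and Dnaja2 (63.3 TPM). In WT, Hspa8 (355 ± 29.6 TPM) was above Hsp90ab1 (248.8 ± 11.5 TPM) in both libraries. In KO the order was the other way round, with Hsp90ab1 at 296 and 364 TPM and Hspa8 at 243 and 318 TPM, in both libraries. Across the KO libraries the TPM ranges of the 2 genes overlapped. The order in KO depends on the exonic lengths used, 4301 bases for Hspa8 and 2999 for Hsp90ab1. By CPM, Hspa8 was above Hsp90ab1 in both KO libraries (694 and 754 against 589 and 603 CPM). Dnaja2, a class A J-protein, was at 126 and 124 CPM in WT and 113 and 113 CPM in KO (log2 fold change -0.14).

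Hspa8 stood at 1122 and 907 CPM in WT and at 694 and 754 CPM in KO. Its KO libraries were the lower ones, and the WT libraries differed from each other by about as much as WT replicate 2 did from KO (log2 fold change -0.49, SE 0.18, edgeR adjusted p = 0.154). In 13 alternatives it stayed between -0.60 and -0.32 without a call. Hsp90ab1, the constitutive cytosolic Hsp90, had 534 and 455 CPM in WT and 589 and 603 CPM in KO. Its KO values were the higher ones (log2 fold change 0.27, SE 0.15, edgeR adjusted p = 0.295). Slc35b2, on the other strand within 500 bases of Hsp90ab1, was at 24.9 and 26.8 CPM in WT and 42.5 and 44.4 CPM in KO. Slc35b2 was called higher (0.75, edgeR adjusted p = 0.0444), and its part in the Hsp90ab1 counts was not tested.

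None of the other genes of the Hsp70 family was called. Hspa4, an Hsp110-type exchange factor, was at 121 and 107 CPM in WT and 98.3 and 93.9 CPM in KO (log2 fold change -0.25). Hspa9, the mitochondrial Hsp70 mortalin, was at 149 and 140 CPM in WT and 172 and 172 CPM in KO (0.25). Hspa14, which works at the ribosome, was at 19.4 and 16.7 CPM in WT and 18.8 and 18.5 CPM in KO (0.05). Hspa12a (-0.59) ranged from 16.2 to 42.9 CPM with overlapping genotypes, and the values of Hspa2 and Hspa4l were -0.32 and -0.25.

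The 12 genes best known as Hsf1 targets gave no call by edgeR, DESeq2 or limma-voom. By edgeR, 1 was higher and 1 lower at an unadjusted p under 0.05 (8.33% each, against 14.8% and 15.7% of all genes). Log2 fold changes were positive for 7 (58.3%, against 49% of all genes) and negative for 5, with a median of 0.01. Hspa1a and Hspa1b (chromosome 17, 34969190 to 34972156 and 34956436 to 34959238) encode the inducible Hsp70 in near-identical copies, so that reads may have been divided between them in more than one way. Hspa1b was at 34.4 and 31.9 CPM in WT and 25.9 and 38.1 CPM in KO, with the KO libraries on either side of the WT libraries (log2 fold change -0.05). Hspa1a was at 12.7 and 12.9 CPM in WT and 11.4 and 14.3 CPM in KO (0.01), and the log2 fold change of the sum of both copies was -0.03 (edgeR adjusted p = 0.921).

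Dnajb1, the J-protein that drives disaggregation by Hsp70, was at 83.4 and 146 CPM in WT and 91.4 and 82.9 CPM in KO. WT replicate 2 alone was high, and the log2 fold change of -0.40 became 0.10 without it and -0.76, with a call (edgeR adjusted p = 0.0419), without WT replicate 1. Hsph1, the inducible Hsp110, was at 16.2 and 10.2 CPM in WT and 13.3 and 16.5 CPM in KO (0.18). Hspb1, encoding Hsp25, was low at 5.11 and 2.65 CPM in WT and 2.53 and 4.44 CPM in KO (-0.15), higher in the male library of each genotype. Hsp90aa1, the stress-inducible Hsp90, was at 115 and 114 CPM in WT and 123 and 109 CPM in KO (0.02, SE 0.12).

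Dnaja1, the main class A partner of Hsc70, was at 95.2 and 90.9 CPM in WT and 76.5 and 82.0 CPM in KO, lower in both KO libraries without a call (log2 fold change -0.23, edgeR adjusted p = 0.216). Beside these genes, the 19 immediate early genes, which are also quickly induced by stress and handling, summed to 6174 and 8981 CPM in WT and 4978 and 3966 CPM in KO. Of them 18 had negative values, and 2 were called lower by edgeR and 7 by DESeq2. The part of this in the values of the heat-inducible genes was not tested.

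**Figure D2:**
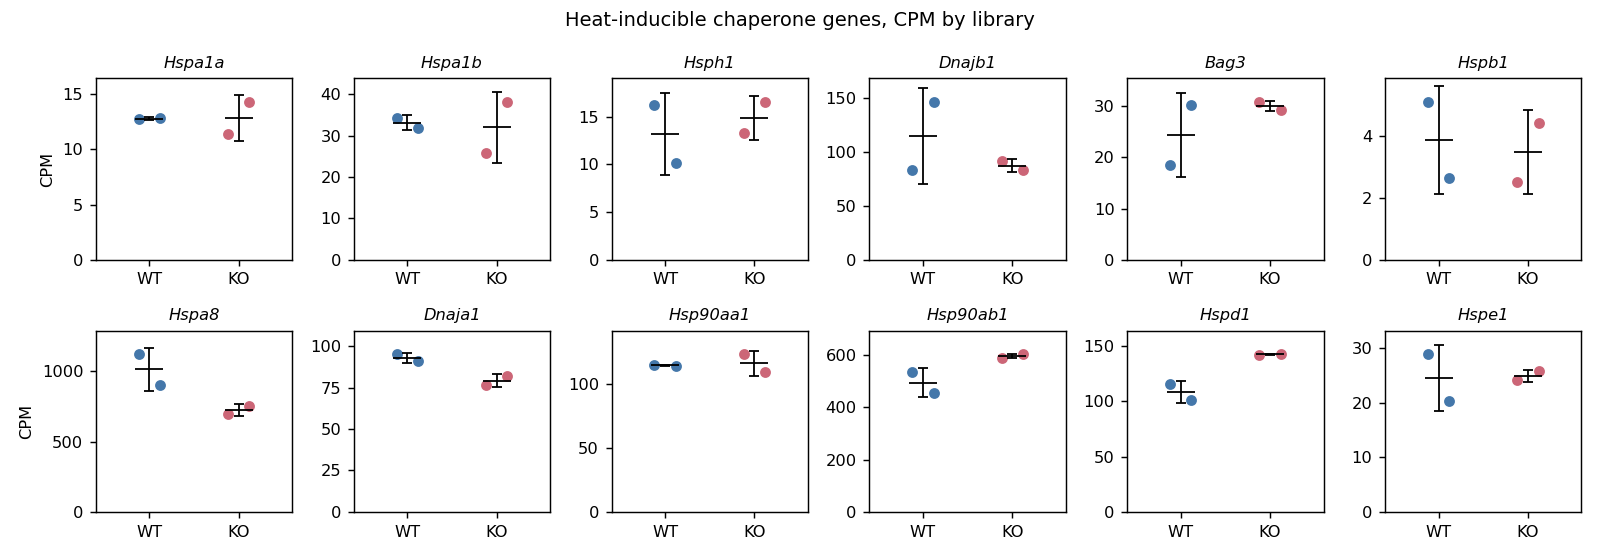
CPM (vertical axis, from 0) of the 12 Hsf1 target genes in each library, with points for the 2 WT and 2 KO libraries and bars for mean ± SD. Hspa8, Dnaja1, Hsp90ab1 and Hspd1 are the 4 whose genotypes do not overlap, where 63.3% of all genes do not, and none of the 12 passed the threshold.

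The 4 genes with a match to the heat shock element did not share a direction. Hspd1 and Hspe1 encode the mitochondrial Hsp60 and its lid Hsp10, and are transcribed away from each other on either side of the stretch printed above. Hspd1 (chromosome 1, 55077835 to 55088243) was at 115 and 101.3 CPM in WT and 142 and 143 CPM in KO, higher in both KO libraries (log2 fold change 0.40, SE 0.12, edgeR adjusted p = 0.115). Hspe1 was at 28.9 and 20.2 CPM in WT and 24.2 and 25.7 CPM in KO (0.02, SE 0.20), with both KO values between those of WT. The 2 gene models overlap on opposite strands, so some reads could have been given to either. Dnajb6, whose protein suppresses aggregation of polyglutamine proteins, was at 76.6 and 78.9 CPM in WT and 65.1 and 64.0 CPM in KO (-0.27, edgeR adjusted p = 0.144).

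J-proteins were the largest family, with 38 of 42 tested, of which 10 had positive and 28 negative log2 fold changes and none was called by edgeR (3 higher and 7 lower at an unadjusted p under 0.05, or 7.89% and 18.4%, against 14.8% and 15.7% of all genes). Positive values made up 26.3%, against 49% of all genes. Their median was -0.15, beside -0.01 for all genes, and with library size scaling it was 0.02, beside 0.15, with 21 positive and 17 negative. All 4 class A genes and 8 of 9 class B genes had negative values, as did 16 of 25 in class C. With library size scaling the negative values numbered 2, 4 and 11 in these classes.

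Dnajb2, whose protein binds ubiquitin and passes Hsp70 clients to the proteasome (chromosome 1, 75236406 to 75245692), was at 13.9 and 14.7 CPM in WT and 8.38 and 8.15 CPM in KO. The genotypes were far apart for the spread within them, and the gene lay just outside the threshold (log2 fold change -0.79, SE 0.14, edgeR adjusted p = 0.0525). It was called lower in 6 of 13 alternatives, among them DESeq2 (adjusted p = 0.0202) and edgeR with sex as a covariate (adjusted p = 0.0452). Within females the difference in log2 CPM was -0.78 and within males -0.74.

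Dnajc10, the disulfide reductase ERdj5 of the endoplasmic reticulum (chromosome 2, 80315466 to 80354043), was at 53.1 and 57.1 CPM in WT and 81.8 and 79.2 CPM in KO. Its KO libraries were higher by more than the spread within either genotype (log2 fold change 0.55, SE 0.10, edgeR adjusted p = 0.0553). It too was called in 6 of 13 alternatives, including DESeq2 (adjusted p = 0.0143). Dnajc25, at 4.82 and 6.48 CPM in WT and 9.53 and 9.16 CPM in KO (0.72, SE 0.21, edgeR adjusted p = 0.105), was called only without WT replicate 2 (0.99, edgeR adjusted p = 0.0404) among the alternatives run.

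Dnajc5, the cysteine string protein that guards vesicle exocytosis, was at 218 and 300 CPM in WT and 178 and 178 CPM in KO. WT replicate 2 was far above the rest (log2 fold change -0.54, SE 0.19, edgeR adjusted p = 0.143), and without WT replicate 1 the value was -0.77 with a call (edgeR adjusted p = 0.0432). Dnajc8, a spliceosome-associated J-protein, was at 37.1 and 35.0 CPM in WT and 28.2 and 26.8 CPM in KO (-0.39, edgeR adjusted p = 0.0861). Dnajc13, which acts on endosomes, was at 88.4 and 71.3 CPM in WT and 61.4 and 62.0 CPM in KO (-0.37), and without WT replicate 2 it was called lower (-0.49, edgeR adjusted p = 0.0459). For these 3 genes both KO libraries lay below both WT libraries.

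Dnajc7, which links Hsp70 to Hsp90, was also lower in both KO libraries, at 97.5 and 91.4 CPM in WT and 76.5 and 72.6 CPM in KO (log2 fold change -0.34, adjusted p = 0.115 by edgeR). The gene overlaps Cnp and Nkiras2 on the other strand. Cnp was called higher, at 14.7 and 21.8 CPM in WT and 47.7 and 50.2 CPM in KO (1.42, edgeR adjusted p = 0.0465). Nkiras2 was not called (-0.09), and the part of either gene in the Dnajc7 counts was not tested. Dnajc6, which encodes the clathrin uncoating factor auxilin and was picked out after its values were seen, had 27 and 49 counts in WT and 12 and 16 in KO (-1.53, SE 0.44, edgeR adjusted p = 0.105).

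**Figure D3:**
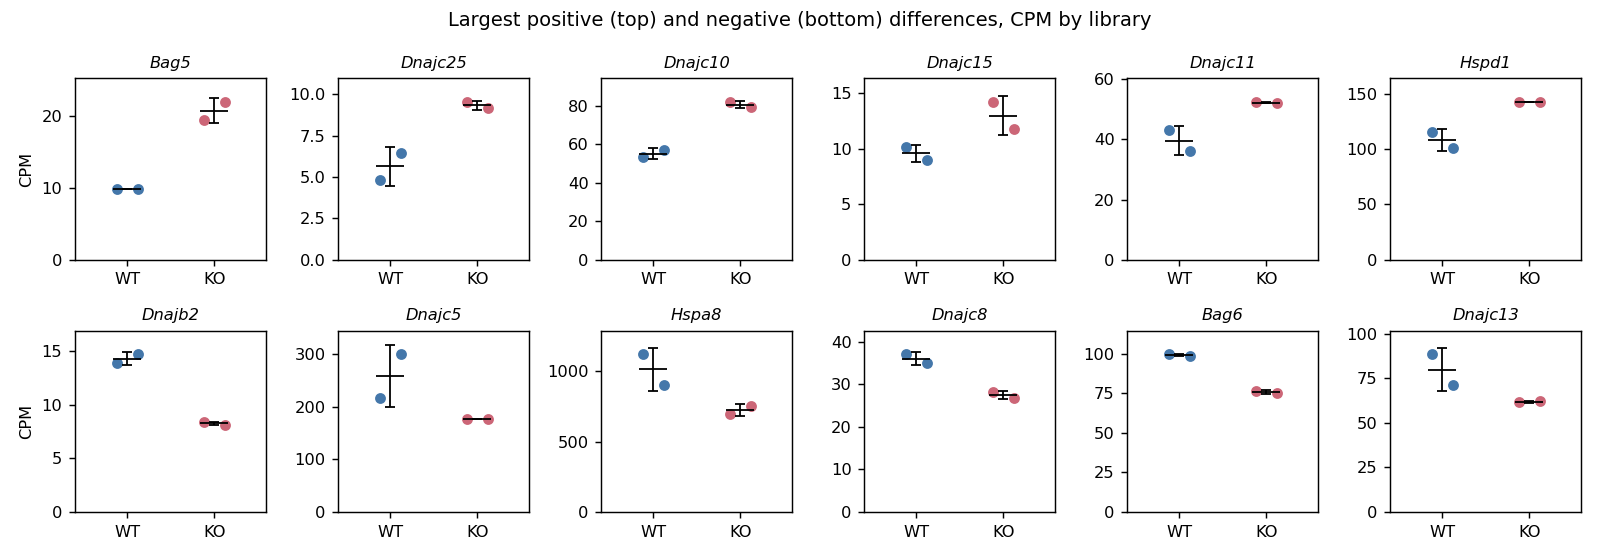
CPM (vertical axis, from 0) by library for the 6 largest positive (top row) and 6 largest negative (bottom row) log2 fold changes among tested chaperone genes with a mean of at least 5 CPM and genotypes that do not overlap, which is what chose them. Points are libraries and bars mean ± SD. Bag5 goes from 9.88 to 20.7 CPM and Dnajb2 from 14.3 to 8.26 CPM.

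The TRiC ring folds actin, tubulin and many other proteins and is built from 8 kinds of subunit. The log2 fold changes of its 8 tested genes ran from -0.26 (Cct4) to 0.24 (Cct2), with a median of 0.05 (0.22 with library size scaling, beside 0.15 for all genes). None was called by edgeR, DESeq2 or limma-voom, and 0 had an unadjusted p under 0.05 by edgeR (against 14.8% of all genes higher and 15.7% lower). Cct2 was at 86.9 and 76.8 CPM in WT and 101.3 and 92.5 CPM in KO, and Tcp1 at 80.4 and 71.1 CPM in WT and 90.2 and 87.5 CPM in KO (0.23). Cct2, Tcp1 and Cct3 (0.19) were higher in both KO libraries, and Cct4 was lower, at 73.6 and 60.8 CPM in WT and 55.4 and 56.6 CPM in KO. Cct5 (0.10), Cct7 (0.01), Cct6a (-0.07) and Cct8 (-0.07) overlapped. All 8 had less in WT replicate 2 than in WT replicate 1.

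Small heat shock proteins bind unfolding clients without ATP. The 8 genes with an Hspb symbol were scarce here, with summed levels of 11.8 and 9.09 CPM in WT and 10.8 and 12.7 CPM in KO. Of these 8, 4 passed the filter. Among the 4 was Hspb11, counted by symbol alone, at 4.34 and 5.13 CPM in WT and 4.79 and 4.17 CPM in KO. The sums thus need not be of small heat shock proteins only. Hspb8, the partner of Bag3, was picked out after its values were seen. It had 6 and 11 counts in WT and 35 and 41 in KO, so it was higher in both KO libraries but at low depth (log2 fold change 2.04, SE 0.45, edgeR adjusted p = 0.0692). Hspb6, a small heat shock protein of muscle, was at 1.88 and 0.589 CPM in WT and 1.73 and 1.99 CPM in KO (0.60). Of the 13 muscle and fibroblast markers, all 11 tested had positive values, and their summed level was highest in KO replicate 2; the muscle marker Des was at 0.145 and 0.547 CPM in WT and 1.24 and 1.17 CPM in KO. The part of these cells' RNA in the values of Hspb6 and Hspb8 was not tested.

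By compartment, a grouping made after the values were seen, the 8 genes assigned to mitochondria had 6 positive and 2 negative log2 fold changes with a median of 0.27. Both KO libraries lay above both WT libraries for 5 of them (62.5%, against 31.1% of all genes) and below for none (against 32.2%). Besides Hspd1 and Hspa9 these were Dnajc11, of the outer membrane and cristae junctions, at 42.9 and 36.3 CPM in WT and 52.4 and 52.0 CPM in KO (0.40, edgeR adjusted p = 0.111), and Dnajc15, of the import motor, at 10.1 and 9.01 CPM in WT and 14.2 and 11.7 CPM in KO (0.44, edgeR adjusted p = 0.165). The fifth was Dnajc30, at 12.3 and 10.4 CPM in WT and 13.3 and 14.4 CPM in KO (0.28). Dnajc30 overlaps Wbscr22 on the other strand, which was at 12.4 and 11.8 CPM in WT and 16.3 and 16.6 CPM in KO (0.44). Whether reads were counted by strand is not known. Dnaja3 (-0.08) and Dnajc19 (-0.15) overlapped between genotypes. The assignment may be incomplete. Dnajc4 (-0.26) and Dnajc28 (-0.50), lower in both KO libraries, and Dnajc25 (0.72), higher in both, were counted among the other genes. The 7 genes of the endoplasmic reticulum had a median of 0.05, and the 56 other tested genes a median of -0.15 with 19 positive and 37 negative. With library size scaling these medians were 0.44, 0.22 and 0.03, beside 0.15 for all genes, with 30 positive and 26 negative among the other genes. None of the mitochondrial genes was called by edgeR, 2 were higher at an unadjusted p under 0.05 (25% of the 8, against 14.8% of all genes), and the difference between compartments was not tested.

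**Figure D4:**
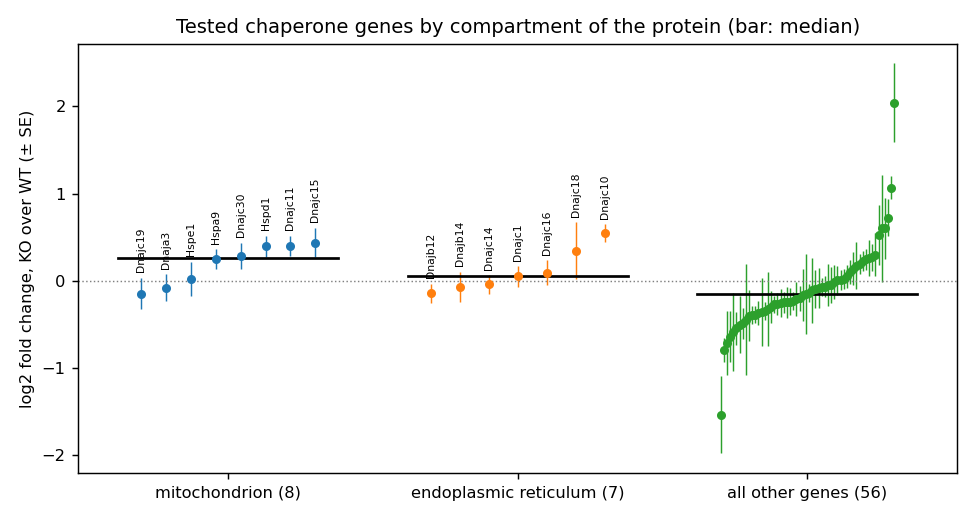
Log2 fold change of KO over WT (vertical axis, ± SE) for tested chaperone genes whose proteins were assigned to mitochondria (8), the endoplasmic reticulum (7) or neither (56), with a bar at each median. The medians are 0.27, 0.05 and -0.15.

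Partner genes outside the family came from lists of textbook knowledge. Of 27 cochaperones of Hsp90 and Hsp70, none was called by edgeR (1 higher and 7 lower at an unadjusted p under 0.05, or 3.7% and 25.9%, against 14.8% and 15.7% of all genes), DESeq2 called 1 higher (Nudcd1) and 1 lower (Pih1d1), 8 had positive and 19 negative log2 fold changes, and the median was -0.14. Pih1d1, of the R2TP assembly complex, was at 19.1 and 17.3 CPM in WT and 11.4 and 10.4 CPM in KO (-0.73, edgeR adjusted p = 0.0557). Chordc1 was at 20.5 and 18.1 CPM in WT and 12.9 and 12.9 CPM in KO (-0.58), and Stub1, the ubiquitin ligase CHIP, at 70.0 and 61.4 CPM in WT and 49.5 and 49.5 CPM in KO (-0.41). Nudcd1, a CS-domain protein, was at 6.89 and 10.5 CPM in WT and 17.6 and 17.9 CPM in KO (1.03, edgeR adjusted p = 0.071). Apart from Nudcd1, the KO libraries were the lower ones for these genes.

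Hsf1 itself was at 10.1 and 9.22 CPM in WT and 9.36 and 11.5 CPM in KO (0.11), with overlapping genotypes. Its binding protein Hsbp1 was at 46.6 and 48.9 CPM in WT and 36.0 and 37.6 CPM in KO (-0.38, edgeR adjusted p = 0.0833), and none of the 4 tested genes of that list was called, with 0 higher and 1 lower at an unadjusted p under 0.05. Among 10 prefoldin and phosducin-like genes, which deliver clients to TRiC, 3 had positive and 7 negative values without a call (2 higher at an unadjusted p under 0.05), with Pdcl at 19.8 and 21.2 CPM in WT and 27.6 and 31.6 CPM in KO (0.53). Of 7 mitochondrial partners 5 had positive values, none called (2 higher at an unadjusted p under 0.05). DESeq2 also called 0 genes of these 3 lists. At an unadjusted p under 0.05 by edgeR, 25% of the Hsf1 list were lower, against 15.7% of all genes. The shares higher were 20% of the prefoldin list and 28.6% of the mitochondrial partners, against 14.8% of all genes. Trap1, the mitochondrial Hsp90, was at 36.1 and 35.0 CPM in WT and 46.3 and 46.6 CPM in KO (0.39, edgeR adjusted p = 0.076), and Grpel1, the exchange factor of Hspa9, at 37.96 and 39.1 CPM in WT and 45.2 and 47.4 CPM in KO (0.26).

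The 2 sexes were each represented by 1 library per genotype, which allows a difference but no test within a sex. Of 54 chaperone genes with a mean of at least 5 CPM, 15 were higher in KO in both sexes, 20 were lower in both and the others had opposite signs. The same counts were not made over all genes, so these have no background beside them. Dnajb1 differed by -0.67 in females and by -0.01 in males on the log2 CPM scale, and Bag3 by 0.03 and 0.64. Sex cannot be told apart here from any other difference between WT replicate 1 with KO replicate 2 and the other pair.

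**Figure D5:**
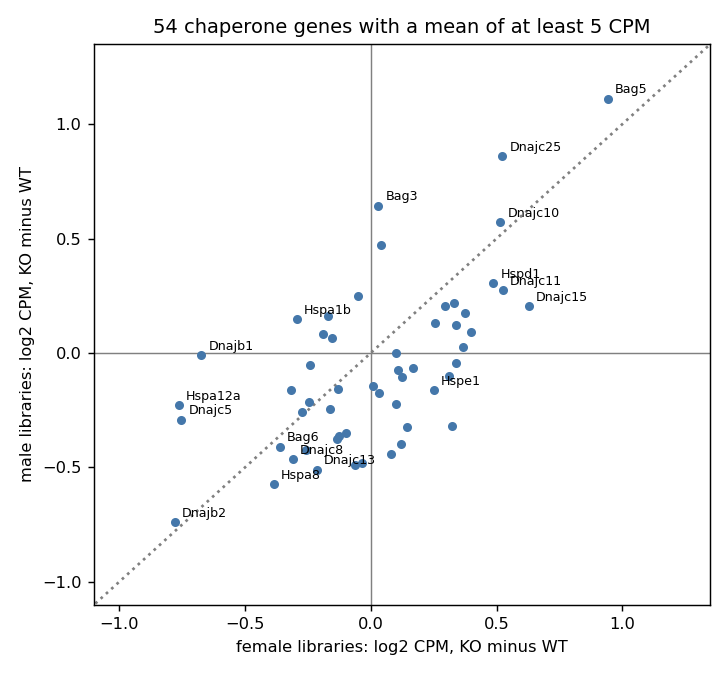
Difference in log2 CPM between KO and WT in the female (horizontal axis) and male libraries (vertical axis) for the 54 chaperone genes with a mean of at least 5 CPM, 1 point per gene, with equal differences on the dotted line. Bag5 lies at 0.94 and 1.11 and Dnajb2 at -0.78 and -0.74.

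The 11 untested genes were Cct6b, Cct8l1, Dnajb7, Dnajb8, Dnajc5b, Dnajc5g, Hspa12b, Hspb2, Hspb3, Hspb7 and Hspb9. Dnajb8, Hspb3 and Dnajc5g were at 0 counts in all 4 libraries, which allows up to 0.12 to 0.136 CPM, here of the unscaled library total, for counting error only. Hspa12b reached 18 counts in KO replicate 2 against 1 to 3 elsewhere, and Dnajc5b had 0 and 3 counts in WT and 4 and 11 in KO. In the same library the endothelial marker Tek had 33 counts, against 2 to 6 elsewhere, and the fibroblast markers were highest. The 6 endothelial markers together were not highest there, with sums of 11.4 CPM in KO replicate 1 and 9.24 CPM in KO replicate 2. The part of such cells in the counts of Hspa12b was not tested. Of the 71 tested genes, 20 overlap another expressed gene in the annotation. Among them are Dnajb13, at 2.49 to 4.74 CPM overlapping Ucp2 at 207 to 252 CPM, and Dnajb3, overlapping Ugt1a genes, so their counts are uncertain. Dnaja1, Cct6a, Cct7, Cct8 and Tcp1 also overlap a gene on the other strand.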

How the data were processed

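The authors deposited whole-number counts per gene for 4 libraries, not normalized, judged from the values. Per the submitters' processing notes, FastQC 0.11.2, STAR 2.4.2a, RSEM 1.2.29 and build mm10 were used, without roles; neither annotation release nor strandedness is given in the sources used here. Groups came from the genotype label, with 2 libraries each. Replicates were numbered in accession order and pair no libraries. The labels do not say that replicates were separate animals, although each group held a male and a female library. The p-values reflect only how far these samples vary.

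Genes were filtered with filterByExpr, scaled with TMM and tested with edgeR 4.0.16 (R 4.3.3; glmQLFit with robust = TRUE; 2 residual degrees of freedom), two-sided, with Benjamini-Hochberg adjustment over 14861 genes. SE is the log2 fold change over the root of F. Differences within a sex used an offset of 0.5 CPM. Lengths are exon unions in GENCODE M21, which held all 82 genes. The fit was also run on simulated counts with planted changes. These had the same spread in every gene and none of the marker differences between libraries seen here. The outcome is not given here, and it cannot show how the fit performs on such differences. Alternatives were other scaling, DESeq2 1.42.0, limma-voom 3.58.1, other filters, sex as a covariate, fewer genes (mitochondrial and the 10 most abundant left out) and each library left out. The genes, lists and tests were chosen with earlier results of these data known.

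Named in full are called genes, Hsf1 targets, TRiC genes, the 6 largest differences each way with a mean of at least 5 CPM and no overlap, and the 5 highest per length. Other genes, among them Hspb8, Dnajc6 and the partner genes named, were picked after their values were seen.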

Additional observations from a re-analysis of the deposited data

Results flagged for a closer look

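In 8 of 32 named and tested chaperone genes the difference between KO and WT had opposite signs in females and males. Each sex had 1 library per genotype, and this difference between sexes was not tested. Genes named as the 6 largest differences each way were chosen for genotypes that do not overlap, so they could not be among the 8. The share over all genes was not counted. In 6 of the 8, the difference was positive in females and negative in males. On the log2 CPM scale, Hspe1 was at 0.25 in females and -0.16 in males (male minus female -0.41), and Hsp90aa1 at 0.11 and -0.07 (-0.18). Among TRiC genes, Cct5 was at 0.31 and -0.10 (-0.41), Cct6a at 0.10 and -0.22 (-0.32), Cct7 at 0.12 and -0.10 (-0.23) and Cct8 at 0.01 and -0.14 (-0.15). The inducible Hsp70 genes went the other way, with Hspa1b at -0.29 and 0.15 (0.44) and Hspa1a at -0.17 and 0.16 (0.33).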

How the results depend on the processing

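No paired analysis was possible because the labels give the libraries no replicate numbers, other than the fit with sex, read from the data, as a covariate, which sets 1 WT against 1 KO library within each sex. Chaperone genes called higher numbered 1, and 2 with upper quartile factors, library size scaling, DESeq2, no filter or sex as a covariate; those called lower numbered 0, and 1 with DESeq2, without a filter, with CPM of at least 1 in 2 libraries, or with sex as a covariate (Dnajb2 each time). With 1 library left out at a time they ranged from 0 to 4 higher and 0 to 3 lower, the lone library of a genotype then being assumed to vary like the others. Over all genes, 255 were higher and 282 lower; upper quartile factors gave 416 higher, library size scaling 604 and 186, DESeq2 952 and 975, no filter 862 and 770, and sex as a covariate 696 and 713. Leaving out 1 library gave 0 to 1271 higher and 0 to 1019 lower: 529 and 719 without WT replicate 1, 1271 and 1019 without WT replicate 2, and 0 by edgeR without KO replicate 1 or 2, where an unadjusted p under 0.05 was reached by 1219 and 1010 genes with higher and by 1038 and 977 with lower values. The median log2 fold change of the chaperone genes was -0.0823 to -0.0032 with a library left out, and 0.0945 with library size scaling. Signs changed in some genes. With library size scaling these were Cct6a (0.10), Cct8 (0.10), Dnaja2 (0.0218), Hspa1b (0.14) and Hspb1 (0.0428), with upper quartile factors Cct6a (0.0028) and Hspa1b (0.0234), with sex as a covariate Hspa1a (-0.0027) and with both copies summed Hspa1a (-0.0327). With 1 library left out the ranges were -0.0148 to 0.73 (Bag3), -0.14 to 0.0423 (Cct6a), -0.0606 to 0.10 (Cct7), -0.76 to 0.10 (Dnajb1), -0.0823 to 0.13 (Hsp90aa1), -0.15 to 0.15 (Hspa1a), -0.33 to 0.19 (Hspa1b), -0.59 to 0.39 (Hspb1), -0.18 to 0.29 (Hspe1) and -0.0916 to 0.54 (Hsph1). The cause was not tested. Of 418 values of named genes under alternatives, 376 kept direction and side of the threshold. Bag5 alone of these genes was called in the main fit, so most of these values are of uncalled genes that stayed uncalled. The count thus says little on how stable the differences are. The filter on low counts kept 11 chaperone genes from being tested.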
